A study of Mus musculus with 6 samples.

Results

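The nuclear genes of the mitochondrial respiratory chain were examined, chosen by their symbols alone: every listed gene whose name starts with Nduf followed by a, b, c, s or v and a number, the Sdh genes a to d, the Uqcr genes, the Cox genes numbered from 4 to 8, and the Atp5 genes. The rule found 84 of 24393 listed genes, of which 37 belong by name to complex I, 4 to complex II, 8 to complex III, 18 to complex IV and 17 to complex V. The libraries came from KH2 mouse embryonic stem cells, which carry a doxycycline-inducible system at a fixed site, of strain C57/BL/6 by the labels. 3 libraries carried the genotype HOXA13, cells with a FLAG-tagged human HOXA13 gene at that site, and 3 the genotype CONTROL, both grown on M15 feeder cells in medium that held CHIR, Noggin, Activin-A and bFGF, and both given doxycycline at 1.25 µg/ml from day 4 by the protocol. On day 6 the cells with both E-cadherin and CXCR4 at the surface were sorted, and they were harvested 1 day later. What the CONTROL cells carry at that site is not given in the sources used here. The targeted cells were picked as clones after drug selection and tested for induction, and the study's methods describe 3 selected biological replicates of each genotype. Whether each is a separate clone is not stated, so p-values measure the spread between these 3 and 3 libraries only.

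The respiratory chain moves electrons from NADH and succinate to oxygen and uses the energy to pump protons across the inner mitochondrial membrane. Complex I takes electrons from NADH, complex II from succinate, complex III passes them to cytochrome c, complex IV hands them to oxygen, and complex V, the ATP synthase, lets the protons back and makes ATP. Pluripotent cells are known for a high rate of glycolysis, and leaving pluripotency is known to go with a shift toward oxidative phosphorylation, so these genes are commonly followed in differentiating stem cells.

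The libraries held between 12279884 and 17331638 counts. The row of human HOXA13 held 0 counts in each CONTROL library and 2497, 7666 and 6572 in the HOXA13 libraries, in the order of the labels. Libraries differed within the groups. The summed level of 8 pluripotency markers was 113, 1254 and 187 CPM (counts per 1000000, with TMM-scaled library sizes) in CONTROL and 630.3, 416 and 395 in HOXA13, and that of 12 mesenchymal and M15 feeder markers was 12045, 2797 and 9765 in CONTROL and 2319, 5947 and 6015 in HOXA13. The 10 epithelial markers summed to 1675, 5694 and 3988 CPM in CONTROL and to 6786, 7569 and 8591 in HOXA13, so that these groups did not overlap. The 8 markers of definitive endoderm, the cells the sort aimed at, summed to 134, 74.2 and 159 CPM in CONTROL and to 49.4, 81.1 and 60.9 in HOXA13. Most of this was Eomes, at 89.0, 49.0 and 111 CPM against 24.4, 41.9 and 33.0, lower in HOXA13 without overlap (log2 fold change -1.32, SE 0.33, adjusted p = 0.141), and Gata6, at 5.69 to 35.8 CPM. Of the others, Sox17 lay between 0.975 and 4.84 CPM and Cxcr4 between 2.25 and 11.3, and Cer1 was at 0 in all 6 libraries. The endoderm markers were split in direction: 6 could be tested, 3 of them above 0 and 3 below. On the log2 scale they ran from -1.32, the value of Eomes, to 0.88, and the middle of the list lay at 0.25. The part of these cell type markers in the chain genes' values was not tested. In bulk RNA fewer cells of a type and less RNA per cell cannot be told apart.

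Promoters of respiratory chain genes are known for binding sites of NRF1, of ETS family factors and of YY1, so the windows from 250 bases before to 50 bases after each start were searched on both strands (RefSeq, GRCm38.p6). Windows were found for 69 of the 84 genes, 75 in all. The NRF1 core GCGCANGCG was present in 28.0% of these windows and in 6.25% of all 32851 windows of the genome table, the ETS core CCGGAAG in 21.3% and 8.86%, the YY1 letters AAGATGGCG in 12% and 1.40%, and the SP1 box GGGCGG in 38.7% and 35.7%. NRF1 matches on both strands overlap where the letters are palindromic. A pair of windows with many matches shows how these letters lie, with 4 matches of the NRF1 and ETS letters in the first and 3 in the second, in capitals. The first also holds 2 matches of the SP1 box, which are not in capitals, and the second none. The first is of Cox6a1, a complex IV subunit (chr5:115348909-115349208, minus strand), and the second of Atp5k, the e subunit of ATP synthase (chr5:108434350-108434649, minus strand). A match is a run of letters and not a measured binding site.
Cox6a1: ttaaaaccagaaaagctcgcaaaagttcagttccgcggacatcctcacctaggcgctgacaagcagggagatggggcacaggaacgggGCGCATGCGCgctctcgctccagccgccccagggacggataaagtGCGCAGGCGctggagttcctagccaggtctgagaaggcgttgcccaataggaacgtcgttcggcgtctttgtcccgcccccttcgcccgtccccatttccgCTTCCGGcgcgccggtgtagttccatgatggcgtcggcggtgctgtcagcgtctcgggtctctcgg
Atp5k: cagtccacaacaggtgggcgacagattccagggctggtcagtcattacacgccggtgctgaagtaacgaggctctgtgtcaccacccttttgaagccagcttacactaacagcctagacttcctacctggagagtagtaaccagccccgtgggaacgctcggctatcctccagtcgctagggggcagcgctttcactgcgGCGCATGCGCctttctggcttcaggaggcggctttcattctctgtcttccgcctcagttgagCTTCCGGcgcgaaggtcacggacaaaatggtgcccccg

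Cox6a1 RNA stood at 157, 165 and 154 CPM in CONTROL and at 165, 144 and 133 in HOXA13, and Atp5k at 16.3, 18.5 and 16.9 against 26.4, 13.7 and 17.0. The groups overlapped for both genes, and the log2 fold change of HOXA13 over CONTROL was -0.11 (SE 0.15) for Cox6a1 and 0.15 (SE 0.30) for Atp5k. For Atp5k only HOXA13 replicate 1, at 26.4 CPM, lay above all CONTROL values, so its direction rested on that library.

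To determine whether HOXA13 changed the RNA of the chain, the groups were compared gene by gene. Of the 84 genes 77 had enough counts to be tested, and none of them passed an adjusted p of 0.05 in edgeR's quasi-likelihood test, in which 0.309% of all 13600 tested genes were called. At an unadjusted p under 0.05 there were 7 genes, 5 with a higher and 2 with a lower level in HOXA13, which is 9.09% of the tested members beside 14.1% of all tested genes. DESeq2 and the edgeR 4 method also called none, where they called 5.05% and 0.779% of all genes with an adjusted p. Limma voom with sample quality weights called 4, all higher in HOXA13, namely Ndufa10, Ndufs1, Ndufb3 and Cox5b, where it called 15.4% of all tested genes. The smallest adjusted p among the members was 0.150 in edgeR, and over the alternative settings of all tools it lay between 0.0331 and 0.570. The groups did not overlap for 12 of the 77 genes, 6 of them higher and 6 lower in HOXA13, where 11.5% of all tested genes were higher without overlap and 8.52% were lower.

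The log2 fold changes of most chain genes were small and their intervals narrow. Their median was -0.08 over the 77 genes, with 24 values above and 53 below 0, beside a median of -0.01 over all tested genes. The medians by complex were -0.04 for complex I, -0.09 for complex II, -0.08 for complex III, -0.06 for complex IV and -0.08 for complex V. Within 0.5 of 0 on the log2 scale lay 70 of the 77 genes (90.9%), against 64.9% of all tested genes. The whole 95% interval lay within a fold of 2 in either direction for 67 genes (87.0%), against 44.7% of all tested genes. The median SE was 0.19 for the members and 0.31 for all tested genes, and most members were well counted, since 71 had a mean over 10 CPM. It was 0.98 for Atp5g2, 0.80 for Cox7a1, 0.78 for Cox7c and 0.76 for Atp5l. All tested genes were not matched to the members by level, and the part of level in these shares was not tested.

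**Figure D1:**
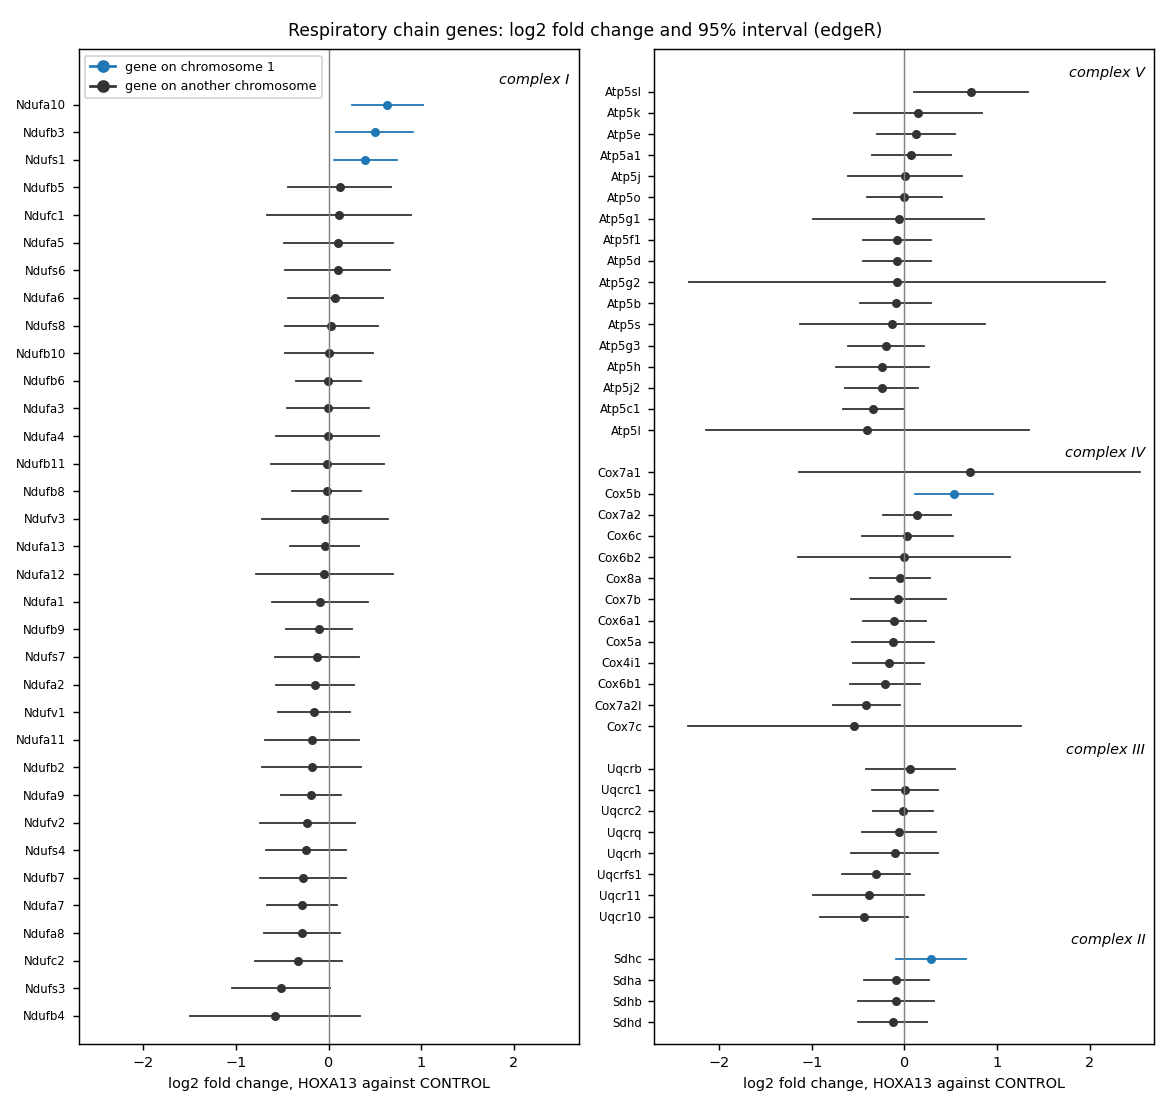
Log2 fold change of HOXA13 over CONTROL (points) with the 95% interval (lines) for the tested genes reported here, by complex, with genes on chromosome 1 in blue. Most points lie close to 0, the 5 blue points all lie above it, and the widest intervals are those of Cox7a1, Cox7c, Atp5l and Atp5g2.

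Summed over its genes, each complex gave overlapping groups. Complex I summed to 2308, 2466 and 2437 CPM in CONTROL and to 2674, 2205 and 2352 in HOXA13. Complex II gave 549, 563 and 525 CPM against 594, 502 and 501. Complex III gave 968, 1073 and 972 CPM against 1019, 863 and 921. In each of these sums the highest HOXA13 value was that of replicate 1. Complex IV gave 1706, 1997 and 1972 CPM against 1976, 1593 and 1659. Complex V gave 3296, 4361 and 3673 CPM against 3895, 3386 and 3580.2. The lowest and the highest of the 6 values both came from HOXA13 in complexes I and II and both from CONTROL in complex V, while in complexes III and IV the lowest came from HOXA13 and the highest from CONTROL.

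**Figure D2:**
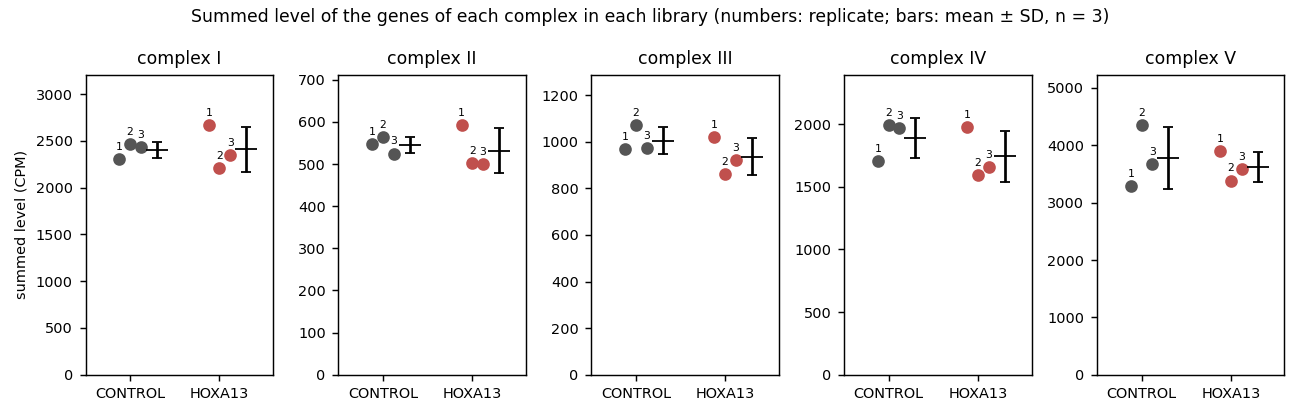
Summed level (CPM) of the listed genes of each complex in every library, with replicate numbers, and the mean ± SD of 3 libraries beside each group. The groups overlap in all 5 panels, and HOXA13 replicate 1 is the highest of its group in each.

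The spread within groups followed libraries. All 84 genes together summed to 8828, 10461 and 9579 CPM in CONTROL and to 10158, 8549 and 9014 in HOXA13. Of the 77 tested genes 39 were highest of the CONTROL libraries in replicate 2, and 60 were highest of the HOXA13 libraries in replicate 1. The same 2 libraries had the highest pluripotency sums of their groups, with the pluripotency factor Pou5f1 at 310 CPM in CONTROL 2 (0.922 and 5.77 in the other CONTROL libraries) and at 75.9 in HOXA13 1 (10.1 and 15.3 in the other HOXA13 libraries). They also had the lowest mesenchymal and M15 feeder sums and the highest sums of cytosolic ribosomal protein genes, 19605 and 18296 CPM, and of glycolysis genes, 11943 and 12038 CPM. The part of these in the chain genes' levels was not tested. Without HOXA13 replicate 1 the median log2 fold change of the 77 genes was -0.19, and 33 genes did not overlap, 6 higher and 27 lower, with 16.8% of all tested genes then higher and 13.4% lower without overlap. No member passed the threshold without that library either, where 0.0495% of all tested genes did, and 7 members (9.09%) had an unadjusted p under 0.05, beside 10.9% of all tested genes.

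The values differed by chromosome. The 6 members on chromosome 1, among them Ndufa10, Ndufs1, Ndufb3, Sdhc and Cox5b, all had higher values in HOXA13, with log2 fold changes between 0.29 and 0.63 and a median of 0.45. For 5 of the 6 the groups did not overlap, where 44.0% of the 737 tested genes on chromosome 1 were higher without overlap. The median over all tested genes on chromosome 1 was 0.51, so these members lay where their neighbours on the chromosome lay. All tested genes on the other chromosomes had a median of -0.04, with 5458 above and 6282 below 0. Of the members there, 18 were above and 53 below 0, with a median of -0.09. Of these 1 was higher without overlap, Atp5sl, and 6 were lower without overlap, where 9.48% of all tested genes on other chromosomes were higher and 9.20% lower. Over 470 well counted genes of chromosome 1, the median deviation from the mean of the 6 libraries was -0.31, -0.33 and -0.22 on the log2 scale in CONTROL and 0.31, 0.26 and 0.31 in HOXA13. What sets chromosome 1 apart between these groups was not tested. The 4 genes called by voom were all among the 6 members on chromosome 1.

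Ndufa10, an accessory subunit in the membrane arm of complex I (chr1:94335587-94370437, mm9), had the smallest p of all members. It measured 92.3, 94.4 and 117 CPM in CONTROL and 167, 139 and 166 in HOXA13. All HOXA13 values were above all CONTROL values, with means of 101 ± 13.8 and 157 ± 16 CPM (SD, n = 3 each) and a log2 fold change of 0.63 (SE 0.17, adjusted p = 0.150). Cox5b, a zinc-binding subunit of complex IV (chr1:36748332-36750230), measured 34.9, 30.5 and 34.7 CPM in CONTROL and 44.7, 51.4 and 49.0 in HOXA13. The groups were apart and the log2 fold change was 0.54 (SE 0.18, adjusted p = 0.240). Ndufb3, another accessory subunit of the membrane arm (chr1:58643228-58652808), measured 33.2, 36.9 and 31 CPM against 49.5, 46.8 and 46.3. Its log2 fold change was 0.50 (SE 0.18, adjusted p = 0.270).

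Ndufs1, the largest core subunit of complex I and a carrier of iron-sulphur clusters (chr1:63190170-63223396), measured 134, 136 and 144 CPM in CONTROL and 162, 190.5 and 193 in HOXA13, a log2 fold change of 0.40 (SE 0.15, adjusted p = 0.275). Sdhc, a membrane anchor of succinate dehydrogenase (chr1:173057296-173080734), measured 86.9, 72.9 and 79.1 CPM against 107, 98.0 and 85.9. Here the groups overlapped by the lowest HOXA13 and the highest CONTROL value, with a log2 fold change of 0.29 (SE 0.16, adjusted p = 0.499). When the median of each gene's own chromosome was taken out, by an offset per library, Ndufa10 was at 0.06 and Cox5b, Ndufb3, Ndufs1 and Sdhc were at -0.04, -0.08, -0.18 and -0.29.

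**Figure D3:**
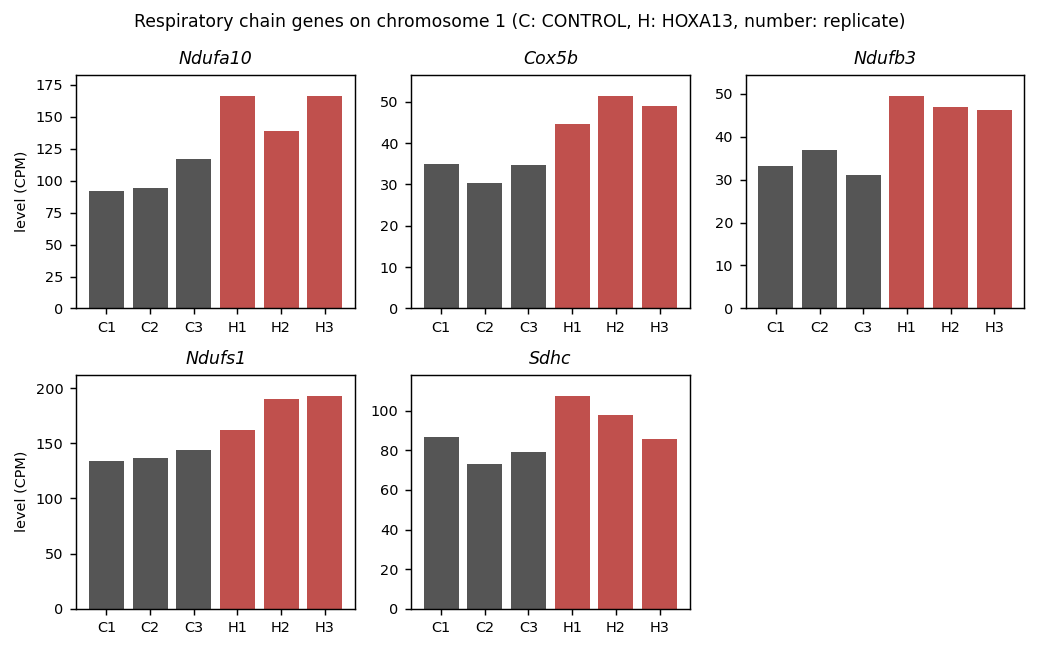
Level (CPM) of 5 chromosome 1 genes in each library, CONTROL in grey and HOXA13 in red, each axis starting at 0. The red bars are above the grey bars for 4 genes, and for Sdhc the bar of HOXA13 replicate 3 (85.9) is just under that of CONTROL replicate 1 (86.9).

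Among the remaining genes of complex I the largest decreases in value were those of Ndufb4 and Ndufs3, neither past the threshold. Ndufb4, an accessory subunit of the membrane arm (chr16:37647256-37654539), measured 7.87, 7.84 and 7.65 CPM in CONTROL and 4.84, 3.98 and 6.79 in HOXA13, a log2 fold change of -0.58 (SE 0.40, adjusted p = 0.581). The groups were apart, but the SE was large at this level. Ndufs3, a core subunit next to the ubiquinone site (chr2:90734791-90744984), measured 29.6, 34.2 and 23.2 CPM against 21.1, 19.6 and 20.2, a log2 fold change of -0.52 (SE 0.23, adjusted p = 0.364). Ndufa9, an accessory subunit (chr6:126771881-126799162), measured 137, 144 and 124 CPM against 117, 123 and 114, and its value was -0.19 (SE 0.14). Among core subunits that the nucleus encodes the values ran from -0.52 for Ndufs3 to 0.40 for Ndufs1, with Ndufv1 at -0.16, Ndufv2 at -0.23, Ndufs7 at -0.13 and Ndufs8 at 0.03, and Ndufs1 lies on chromosome 1. Single libraries weighed on some of these. HOXA13 measured 109, 78.1 and 89.9 CPM for Ndufv1, 119, 72.3 and 82.8 for Ndufv2, and 42.5, 37.1 and 56.4 for Ndufs8.

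In complex II, Sdha, the flavoprotein that oxidises succinate (chr13:74459702-74487728), had the highest level, 242, 288 and 245 CPM in CONTROL and 268, 232 and 228 in HOXA13. The groups overlapped, with a log2 fold change of -0.09 (SE 0.15, 95% interval -0.44 to 0.26). Sdhd, the other membrane anchor (chr9:50404443-50411954), measured 146, 141 and 128 CPM against 148, 115 and 117, a value of -0.13 (SE 0.16). The subunits of this complex differed from each other in direction only through Sdhc.

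In complex III, Uqcrc1, a core protein (chr9:108838661-108851685), was the gene with the highest level and the groups had nearly the same mean, 316 ± 37.4 CPM in CONTROL and 317 ± 23.6 in HOXA13 (SD, n = 3 each). Its log2 fold change was 0.00 with a 95% interval from -0.35 to 0.36. Uqcrfs1, the Rieske iron-sulphur protein that takes electrons from ubiquinol (chr13:30632177-30637231), measured 121, 156 and 124 CPM against 111, 108 and 105, without overlap. Its value was -0.31 (SE 0.16, adjusted p = 0.444), the gap between the groups rested on 121 against 111 CPM, and without CONTROL replicate 2 the value was -0.20. Uqcrb, a small subunit (chr13:67001553-67006314), had the largest increase in value of the complex, 0.07 (SE 0.21).

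Uqcr10, another small subunit of complex III (chr11:4601976-4604345), had the largest decrease in value of that complex, -0.43 (SE 0.21, adjusted p = 0.404). It measured 114, 82.0 and 77.6 CPM in CONTROL and 77.8, 59.6 and 65.2 in HOXA13, and the value rested in part on CONTROL replicate 1, without which it was -0.26. With the median deviation of each chromosome taken off in each library, it was -0.27. The same library was highest of all 6 for each of the 4 members on chromosome 11, which besides Uqcr10 are Uqcrq (93.5 CPM), Atp5h (46.7) and Atp5g1 (18.3), but for 10 of the 77 members in all. Over 677 well counted genes of chromosome 11 the median log2 difference of CONTROL replicate 1 from the mean of the other CONTROL libraries was 0.46, and over genes on other chromosomes it was -0.05. For the 4 members it was 0.51 (Uqcr10), 0.24 (Uqcrq), 0.48 (Atp5h) and 0.91 (Atp5g1), and its median over the members on other chromosomes was -0.13. These 4 were examined together after their values were seen.

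In complex IV, Cox4i1, the common form of subunit 4 (chr8:123192190-123198109), had the highest level, 765, 899 and 938 CPM in CONTROL and 881, 688 and 745 in HOXA13. The groups overlapped and the log2 fold change was -0.17 (SE 0.17), -0.29 without HOXA13 replicate 1 and -0.28 without CONTROL replicate 1. Cox7a2l, known as a factor that joins complexes III and IV into supercomplexes (chr17:83901259-83913673), measured 88.3, 102 and 84.7 CPM against 71.5, 67.1 and 68.3. Its groups did not overlap, with a log2 fold change of -0.41 (SE 0.16, adjusted p = 0.290), and the value stayed between -0.48 and -0.34 over the alternatives. Cox7c, a small subunit (chr13:86184421-86186509), was nearer the floor at 6.10, 4.08 and 3.07 CPM against 5.76, 0.703 and 2.67, a value of -0.54 with an SE of 0.78 that ran from -1.40 without HOXA13 replicate 1 to -0.095 without HOXA13 replicate 2, and was -0.26 without CONTROL replicate 1.

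Several complex IV subunits have forms restricted to heart and skeletal muscle, testis or other tissues, and those forms were nearly absent from the counts. Cox6a2, Cox7b2, Cox8b, Cox8c and Ndufa4l2 held 0 counts in all 6 libraries, where 3 counts would equal between 0.176 and 0.240 CPM. Cox4i2, the form of subunit 4 known from lung, held 0 counts in each CONTROL library and 2, 2 and 4 in HOXA13, too few to be tested. Cox7a1, the muscle form of subunit 7a, measured 1.06, 1.68 and 1.12 CPM against 2.77, 2.52 and 1.03, a log2 fold change of 0.70 with an SE of 0.80, and 0.45 without HOXA13 replicate 1. The summed level of 8 skeletal and cardiac muscle markers was between 5.53 and 10.8 CPM per library. Cox6b2, known as the testis form of subunit 6b, was the exception at 13.7, 58.6 and 30.2 CPM in CONTROL and 48.8, 26.4 and 27 in HOXA13. Its highest values were in CONTROL 2 and HOXA13 1, its log2 fold change was -0.00 (SE 0.50), and without CONTROL replicate 2 it was 0.61. Per length, the mean level of Cox6b2 was 61.9 CPM per kb of transcript, beside 319 for the common Cox6b1, and Cox7a1 was at 4.66 beside 111 for Cox7a2. The common forms Cox6b1, Cox7a2, Cox7b, Cox8a and Ndufa4, the last now counted as a complex IV subunit, had log2 fold changes of -0.21, 0.14, -0.06, -0.04 and -0.01, all with overlapping groups.

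In complex V, Atp5b, the catalytic beta subunit of ATP synthase (chr10:127520329-127527447), had the highest CPM of all 84 genes, 1512, 2033 and 1779.6 in CONTROL and 1759.8, 1589.6 and 1636 in HOXA13. The groups overlapped, with a log2 fold change of -0.09 (SE 0.17, 95% interval -0.48 to 0.29). Atp5c1, the gamma subunit of the rotating stalk (chr2:9977643-10002137), measured 154, 144 and 161 CPM against 124, 113 and 125, without overlap. Its means were 153 ± 8.64 and 121 ± 6.91 CPM (SD, n = 3 each) and its log2 fold change was -0.34 (SE 0.14, adjusted p = 0.325).

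Atp5sl had the largest log2 fold change of the tested members, 0.72 (SE 0.27, 95% interval 0.11 to 1.33, adjusted p = 0.277), and it lies on chromosome 7 (chr7:26404433-26410570). It measured 14, 18.5 and 18.6 CPM in CONTROL and 35.4, 26.7 and 22.1 in HOXA13, so the groups did not overlap, and the value lay between 0.50 and 0.85 over the alternatives. Despite its symbol this gene, also called Dmac2, is known as an assembly factor of complex I and not as a subunit of ATP synthase. The 14 tested genes of a list of complex I assembly factors had a median of -0.15, with 3 above and 11 below 0 and none at an unadjusted p under 0.05, beside 14.1% of all tested genes.

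Several chain genes have copies of their sequence elsewhere in the genome, and the part of these in the counts was not tested. Each gene's transcript (GENCODE M1, the one with the longest coding sequence) was cut into all windows of 75 bases, the read length, and 53 of the 84 genes had no window with an exact copy elsewhere in mm9, while 18 genes had copies of at least 10% of their windows. How reads with several alignments were treated is not given in the sources used here. In Atp5g2 (a form of the c ring subunit), Atp5l (the g subunit), Cox7c and Ndufb4 every 75-base window of the coding sequence has a copy, and the 3 of these with the highest share over the whole transcript are shown. The first 75 coding bases of each follow, with the start codon in capitals.
Atp5g2: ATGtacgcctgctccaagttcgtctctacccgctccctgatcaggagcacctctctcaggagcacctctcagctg
Atp5l: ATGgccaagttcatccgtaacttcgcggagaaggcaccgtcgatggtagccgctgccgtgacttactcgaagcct
Cox7c: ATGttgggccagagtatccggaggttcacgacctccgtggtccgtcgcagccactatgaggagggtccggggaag

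Of the transcript of Atp5g2 (gene at chr15:102493299-102501478) 100% of the windows had a copy, among others at chr17:5816054-5816700, of Atp5l (gene at chr9:44721333-44728825) 85.8%, mostly at chr5:24087270-24087712, and of Cox7c 70.0%, all of them at chr11:75413148-75413547. Their RNA was listed at 0.351 to 1.5 CPM for Atp5g2, 1.03 to 2.17 for Atp5l and 0.703 to 6.10 for Cox7c, while Atp5g3, which encodes the same c subunit and has no copied window, was at 204 to 299.6 CPM. Ndufs5, a complex I subunit with 73.4% of its windows at chr16:42955673-42956176, had 0 counts in all libraries. Not every gene with copies was low, since Cox5b with 50.6% of its windows copied and Cox7a2l with 43.9% had mean levels of 72.2 and 70.1 CPM per kb. The median of the tested genes was 82.2 CPM per kb with under 10% of windows copied and 70.1 with more. Across the 84 genes Spearman's rho of the copied share with the level per kb was -0.18 and over the 77 tested genes -0.28, given as a description since genes share libraries. The median log2 fold change was -0.07 over the 60 tested genes with under 10% copied and -0.08 over the 17 others.

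**Figure D4:**
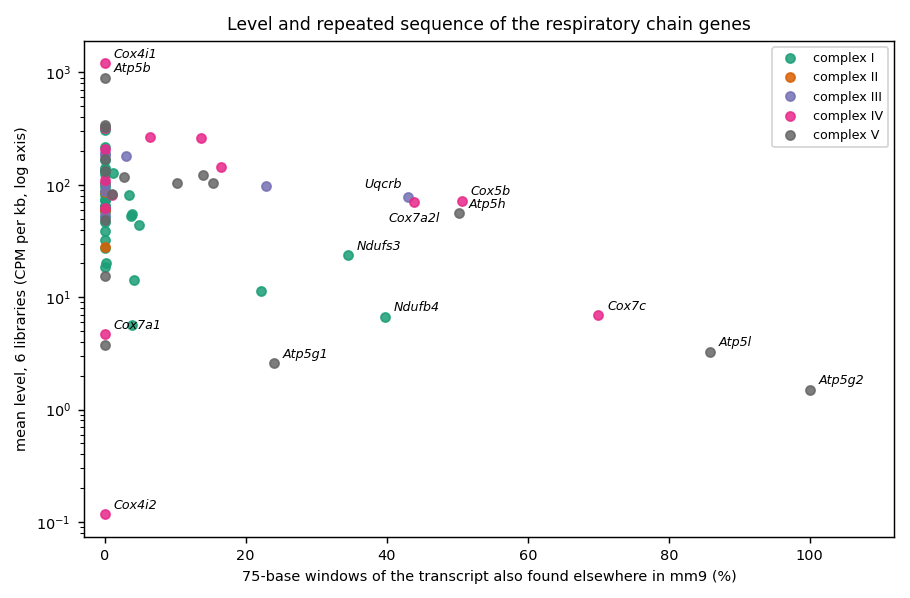
Mean level over the 6 libraries (CPM per kb, log axis) against the share of 75-base windows with an exact copy elsewhere in mm9, for each gene with counts, coloured by complex. The genes with the highest shares, Cox7c (70.0%), Atp5l (85.8%) and Atp5g2 (100%), are below 10 CPM per kb, and most genes without copies are above it.

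Per kb of transcript, and over the 60 tested genes with under 10% of windows copied, which leaves out the untested tissue-restricted forms at or near 0, the median level was 64.5 CPM per kb for complex I, 72.9 for complex II, 140 for complex III, 160 for complex IV and 125 for complex V. Cox4i1 was the highest of all at 1207 CPM per kb and Atp5b next at 897. Levels per kb depend on the transcript taken as the length, and for Ndufb2 and Atp5g1 that transcript has 4371 and 4715 bases.

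The genes around the chain were read from lists by the same test, and none of their 273 tested genes passed the threshold in edgeR, while 20 (7.33%) had an unadjusted p under 0.05, beside 0.309% and 14.1% of all tested genes, shares against which the counts of each list below are also to be read. DESeq2 called 3, namely Pcx, Rpl7 and Slc2a1, voom called 19 (6.96%) and the edgeR 4 method 0, where these tools called 5.05%, 15.4% and 0.779% of all genes. The symbols of the 13 genes that the mitochondrial genome encodes matched no row and were not analysed here. The 6 tested subunits and carriers outside the symbol rule had a median of -0.28, with 2 above and 4 below 0. Of these, Cyc1, the cytochrome c1 of complex III, was at 0.00 (SE 0.20), and Ndufab1, an acyl carrier subunit of complex I, at -0.78 (SE 0.49), with 93.5% of its coding windows copied elsewhere. Atpif1, the inhibitor of ATP synthase, measured 95, 105 and 99.5 CPM in CONTROL and 79.9, 67.8 and 69.7 in HOXA13, without overlap, a log2 fold change of -0.46 (SE 0.15, adjusted p = 0.233).

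Among 33 tested assembly factors of complexes II to V the median was -0.18, with 9 above and 24 below 0 and 3 at an unadjusted p under 0.05. These were Bcs1l, which inserts the Rieske protein into complex III, at 0.85 (SE 0.26) and on chromosome 1, Cox20, a factor for complex IV, at 0.99 (SE 0.34), and Sdhaf2, which adds the flavin to Sdha, at -0.51 (SE 0.19). Cox20 had no position under its symbol in the annotation used, so its chromosome is not given here. The 18 enzymes of the tricarboxylic acid cycle and its entry had a median of -0.04, with 4 at an unadjusted p under 0.05, 2 of them higher (Fh1, on chromosome 1, at 0.40 and Idh3a at 0.42) and 2 lower. Pyruvate carboxylase, Pcx, measured 34.0, 28.9 and 30.2 CPM in CONTROL and 19.5, 10.9 and 11.5 in HOXA13, a log2 fold change of -1.15 (SE 0.29, adjusted p = 0.140). Idh2, the mitochondrial isocitrate dehydrogenase that makes NADPH, was at -0.65 (SE 0.20, adjusted p = 0.197).

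Of 18 tested regulators of mitochondrial biogenesis 1 had an unadjusted p under 0.05, Tfb2m, a mitochondrial transcription factor on chromosome 1, at 0.75 (SE 0.27). Nrf1, the factor whose letters were counted in the promoters, measured 43.2, 44.1 and 51.4 CPM in CONTROL and 61.6, 59.1 and 55.1 in HOXA13, without overlap, a value of 0.34 (SE 0.17, adjusted p = 0.439). The 75 tested mitochondrial ribosomal protein genes had a median of -0.03, and the 2 with an unadjusted p under 0.05, Mrps14 at 0.74 and Mrpl30 at 0.49, both lie on chromosome 1. The 77 tested cytosolic ribosomal protein genes had a median of 0.03, with Rpl7 at 0.70 (chromosome 1) and Rpl5 at -0.59 having the smallest p. Of 19 tested glycolysis genes 9 were above and 10 below 0, and 4 had an unadjusted p under 0.05, with the smallest p for Slc2a1, the main glucose transporter, at 1.15 (SE 0.32) and Hk1, a hexokinase, at 0.67 (SE 0.19), both higher, while Pfkm at -0.76 and Eno2 at -0.66 were lower. Slc2a1 measured 345, 901 and 608 CPM in CONTROL and 1334, 1205 and 1578 in HOXA13. The 13 genes of a list of mitochondrial dynamics and import had a median of -0.02, with 6 above and 7 below 0. Without overlap 1 was higher (Dnm1l at 0.10) and 2 were lower, beside 11.5% and 8.52% of all tested genes. Of the lower ones, Tomm20, a receptor of the outer membrane import channel, was at -0.51 (SE 0.14, adjusted p = 0.169) and Vdac1, the outer membrane anion channel, at -0.43 (SE 0.16, adjusted p = 0.270). The 13 genes summed to 2593 to 2662 CPM in CONTROL and to 2410.5 to 2547 in HOXA13.

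**Figure D5:**
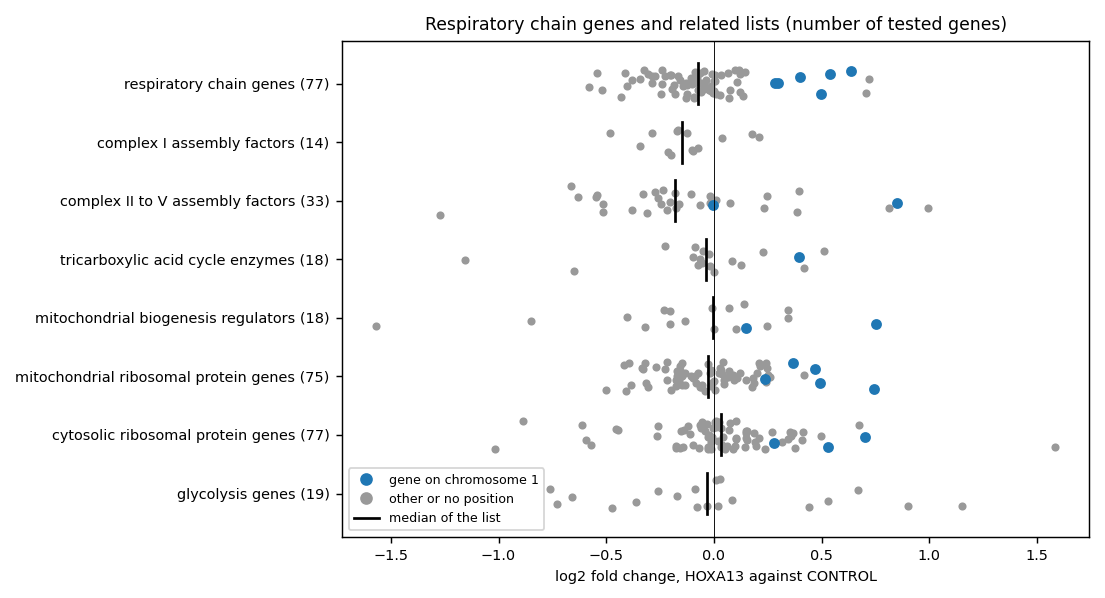
Log2 fold change of HOXA13 over CONTROL for each tested gene of the respiratory chain and of 7 of the related lists, with chromosome 1 genes in blue and the list's median as a black line. The plotted medians lie between -0.18 and 0.03, and all but 1 of the blue points lie above 0.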

How the data were processed

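The deposited values are raw counts per gene symbol, 1 list per library. Per the labels and the study's methods, the authors made stranded poly-A libraries, aligned 75-base reads to mouse mm9 with TopHat and counted with HTSeq 0.6.1p1. The submitters' processing notes give TopHat2 version 2.0.14, and the study's methods name another version. Which of them was used is not settled by these sources. The annotation and the strand option are not given in the sources used here. Tests used edgeR 4.0.16 (R 4.3.3) with filterByExpr (minimum count 10, minimum total 15), TMM, the earlier quasi-likelihood method with the group alone over 3 CONTROL and 3 HOXA13 libraries, and Benjamini-Hochberg adjustment over all 13600 tested genes at 0.05. Groups came from the sample titles. The code was tested on simulated counts. Alternatives were DESeq2 1.42.0, limma 3.58.1 voom, the edgeR 4 method, other scalings and filters, a replicate block, a chromosome offset and leaving out each library. Positions are GENCODE M1 on mm9 and cover 91.7% of tested genes.

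Named genes are, per complex, the tested members with the largest increase, the largest decrease and the highest CPM, up to 10 others without overlap by smallest p, tissue-restricted forms with their common forms, Ndufab1 and Cyc1, and per list the 2 genes with the smallest p. A gene that the rule also names is counted in all totals but not reported here. Other names were added after their values were seen. The members and lists were chosen with earlier results of these data known.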

Additional observations from a re-analysis of the deposited data

How the results depend on the processing

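Atp5g2, Atp5l, Cox7c and Cox7a1 were at a few CPM with wide intervals, the first 3 of them with most windows copied elsewhere, and the part of depth in this was not tested. With 3 replicates per group every p is limited. The count of members past the threshold was 0 under every alternative except voom with sample quality weights, which gave 4. Over these alternatives the share of all tested genes past it ran from 0 to 15.4%, and without CONTROL replicate 2 it was 14.2%. In voom Cox5b, Ndufa10, Ndufb3 and Ndufs1 passed at log2 fold changes of 0.52, 0.54, 0.54 and 0.42. The cause was not tested. The median log2 fold change lay between -0.19 and -0.03 when 1 library was left out and was negative in every setting run. The count without overlap, recomputed by choices made after seeing the data, was 14 with RLE (6 higher and 8 lower, beside 10.8% and 9.42% of all tested genes) and 13 with upper quartile scaling (6 and 7, beside 10.2% and 10.3%), and 13 to 33 when 1 library was left out. The counts were 14 without CONTROL replicate 3 (6 and 8, beside 14.7% and 12%), 13 without HOXA13 replicate 2 (6 and 7, beside 15.2% and 13.1%), 16 without HOXA13 replicate 3 (8 and 8, beside 14% and 10.9%), 21 without CONTROL replicate 1 (7 higher and 14 lower, beside 14.3% and 11.5% of all tested genes), 20 without CONTROL replicate 2 (9 and 11, beside 25.3% and 23.9%) and 33 without HOXA13 replicate 1 (6 and 27, beside 16.8% and 13.4%). RLE and upper quartile scaling shifted the median of all genes by -0.02 and -0.04.

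The replicate block left 0 members and 0 of all 13600 tested genes past the threshold, with a median of -0.08 and 1 member at an unadjusted p under 0.05, beside 10.2% of all tested genes. Replicate numbers are not stated to pair the samples. Same-numbered libraries had a mean correlation of deviations from their group means of -0.128, others 0.0724. Such deviations are tied to each other within a group, so these values cannot decide whether the numbers pair libraries. Under the block Cox6b2 was at 0.14.

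The alternatives gave 433 values for 29 tested chain genes among the named ones. Of these, 404 kept direction and side of the threshold, 4 passed it in voom, and 25 changed sign. Other genes named in the text, among them Atp5k, Ndufv1, Ndufv2, Ndufs7, Ndufs8 and those of the lists, are not in these values. By its construction the chromosome offset turned Cox5b (-0.037), Ndufb3 (-0.083), Ndufs1 (-0.18) and Sdhc (-0.29), and it put Cox6b2 at 0.014. The other changes of sign were of values close to 0. Uqcrc1 was at -0.016 in DESeq2 and with RLE scaling, at -0.019 with no filter beyond 1 count, at -0.024 over genes averaging 50 counts or more, and at -0.036 with upper quartile scaling. Cox6b2 was at 0.20 in voom. With 1 library left out Uqcrc1 ran from -0.10 to 0.074, Cox6b2 from -0.41 to 0.61, Cox7b from -0.25 to 0.094, Ndufa4 from -0.32 to 0.10 and Uqcrb from -0.094 to 0.15. Values that kept their sign but moved by over 1.5 times in this way, beside those given in the report, were of Cox6b1 (-0.36), Sdhd (-0.27), Cox6a1 (-0.21) and Cox7a2 (0.046) without HOXA13 replicate 1, of Atp5l without HOXA13 replicate 2 (-0.73) and 3 (-0.23), of Cox7a2 without CONTROL replicate 1 (0.053), of Sdhd without CONTROL replicate 3 (-0.20) and of Cox6a1 without HOXA13 replicate 3 (-0.061). Closer to 0, Atp5b ran from -0.22 without CONTROL replicate 1 to -0.0023 without CONTROL replicate 2, Sdha from -0.18 without HOXA13 replicate 1 to -0.019 without CONTROL replicate 2, and Cox8a from -0.11 to -0.016.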
